A study of Homo sapiens with 32 samples.

Results

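Metallothioneins are small cysteine-rich proteins that bind zinc and copper, and MTF1 is the zinc-sensing transcription factor of their genes. The genes described here were chosen by symbol from the protein-coding rows of the count tables: MT1E, MT1F, MT1G, MT1M, MT1X, MT2A and MTF1, 7 of 19815 protein-coding genes. Their mRNAs were measured by poly(A) RNA-Seq in 32 libraries from 2 lines of human breast cells, MCF10A and MDA-MB-231, with 16 libraries each. MCF10A is an immortalised, non-tumourigenic epithelial line, kept in medium with serum, EGF, hydrocortisone, cholera toxin and insulin. MDA-MB-231 is a line from a metastatic triple-negative carcinoma, kept in medium with serum and none of these additions. Cells of each line were held in normoxia (N), in 0.5% O2 for 24 hours (H), in normoxia with PP242 at 2.5 µM for 3 hours (NPP) or in hypoxia with the same PP242 treatment (HPP), and cells without PP242 received its solvent, DMSO. PP242 blocks the kinase mTOR, which drives translation of many mRNAs, ribosomal protein mRNAs above all. Total mRNA (T) and mRNA bound to polysomes (P), taken from a sucrose gradient, were sequenced from each condition, which gave 8 groups per line with 2 biological replicates each. By the numbers in the labels, the T and P libraries of a replicate came from the same culture. A single line stood for each cell type, so the 2 lines differ in origin, medium and count table at once.

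In cells, free zinc binds the zinc fingers of MTF1, which then binds metal response elements upstream of the metallothionein genes. The proteins made from them hold the metal, give it up to other proteins and take up reactive oxygen. The same genes are known to respond to glucocorticoids and to low oxygen, and in breast epithelium metallothionein is made mainly by the myoepithelial layer and by many carcinomas. The comparisons below ask how the family and its regulator behaved when oxygen, mTOR or both were withdrawn, in total mRNA and on polysomes.

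The 6 metallothionein genes lie in 1 cluster on chromosome 16 (GRCh38, GENCODE v44), and all but MT1G are read from the plus strand. They are MT2A (ENSG00000125148.6) at chr16:56608584-56609497, MT1E (ENSG00000169715.14) at chr16:56625475-56627112, MT1M (ENSG00000205364.3) at chr16:56632659-56633981, MT1F (ENSG00000198417.6) at chr16:56657731-56660698, MT1G (ENSG00000125144.13) at chr16:56666730-56668065 and MT1X (ENSG00000187193.8) at chr16:56682470-56684196. Their canonical transcripts are very short, with 401 bases for MT2A, 746 for MT1E, 398 for MT1M, 425 for MT1F, 410 for MT1G and 404 for MT1X, and hold 3 exons each except MT1E with 2. MTF1 (ENSG00000188786.9) lies at chr1:37809574-37859592 on the minus strand, with a transcript of 7937 bases in 11 exons. The genes tested had a median transcript of 3288 bases (MCF10A) or 3328 bases (MDA-MB-231), so the metallothioneins and MTF1 stand at opposite ends of the length range.

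Promoters are shown because metal response elements are the sites through which MTF1 acts on these genes. In the table of RefSeq promoters used here, 3 of the 7 genes were matched by symbol, MT2A, MT1X and MTF1, and MT1E, MT1F, MT1G and MT1M were not. Each run below is the 250 bases upstream of the gene start on GRCh38.p14, 5′ to 3′ on the strand of the gene, at chr16:56608334-56608583 for MT2A, chr16:56682220-56682469 for MT1X and chr1:37859593-37859842 for MTF1. Capitals mark the cores of metal response elements, searched as TGCACNC or TGCGCNC on both strands.
MT2A: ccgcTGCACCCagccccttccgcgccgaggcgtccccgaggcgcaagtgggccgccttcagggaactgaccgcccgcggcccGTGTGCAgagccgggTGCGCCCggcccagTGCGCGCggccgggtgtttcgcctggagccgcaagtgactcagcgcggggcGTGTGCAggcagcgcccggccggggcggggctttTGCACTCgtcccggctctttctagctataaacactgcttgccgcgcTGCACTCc
MT1X: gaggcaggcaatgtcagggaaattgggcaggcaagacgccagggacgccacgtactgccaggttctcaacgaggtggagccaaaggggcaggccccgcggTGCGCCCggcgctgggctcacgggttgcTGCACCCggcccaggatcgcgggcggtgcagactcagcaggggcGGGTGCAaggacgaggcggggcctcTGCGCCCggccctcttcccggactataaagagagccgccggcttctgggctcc
MTF1: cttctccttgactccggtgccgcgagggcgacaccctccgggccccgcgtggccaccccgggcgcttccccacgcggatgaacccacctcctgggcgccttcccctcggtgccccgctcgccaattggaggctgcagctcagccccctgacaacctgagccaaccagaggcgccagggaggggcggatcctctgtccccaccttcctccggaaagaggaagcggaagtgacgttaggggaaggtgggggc
The MT2A window held 7 such cores, the MT1X window 4 and the MTF1 window 0. Of 35116 promoter windows of this length, 24.8% held at least 1 core, 0.37% held at least 4 and 0.0313% held at least 7. Cores of hypoxia response elements, searched as ACGTG or GCGTG on both strands, numbered 1 in MT2A, 1 in MT1X and 2 in MTF1, and 43.2% of all windows held at least 1 and 19.4% at least 2. The 1 in MT2A, 90 to 86 bases before the start, overlaps a metal core at 88 to 82 bases before it. A TATA box, TATAAA, was found in the MT2A and MT1X windows and in 10.7% of all windows. These matches describe letters in the windows and do not show that a factor binds there.

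Library totals ran from 18340916 to 46032327 counts with a median of 34561484. After edgeR had removed weakly counted genes, 13124 were tested for MCF10A and 13510 for MDA-MB-231, and 5 of the 7 genes passed in both lines: MT2A, MT1E, MT1X, MT1F and MTF1. Levels are given as CPM, the count of a gene relative to its library's total, scaled within each line by TMM, or per transcript length, as TPM over coding genes. Fold changes are on the log2 scale with their standard error (SE), and a gene was called at an adjusted p under 0.05 in the quasi-likelihood test of edgeR over all genes tested. Replicates of MCF10A varied more (biological coefficient of variation 0.325) than those of MDA-MB-231 (0.15). With 2 libraries against 2, the smallest permutation p is 0.333, so single genes are tested only through the fit across genes. Groups of 2 without overlap are therefore common and only describe the values. The share of all genes without overlap was not counted. The metallothionein genes are near-identical copies and RSEM divides shared reads among them by its own estimates, so the value of 1 member is less certain than that of the family. In these bulk libraries, fewer cells with an mRNA and less of it per cell cannot be told apart.

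The low-oxygen labels were checked with 8 genes induced by hypoxia. In MCF10A all 8 genes were higher in each of the 8 low-oxygen libraries than in any other, with CA9, a carbonic anhydrase, at 522 to 1360 CPM against 7.72 to 26.9. In MDA-MB-231 this held for 6 of the 8, with CA9 at 13 to 34.6 CPM against 0.0568 to 1.02, while ADM and VEGFA overlapped. Of the basal epithelial markers, KRT5 and KRT14 were abundant in MCF10A, at medians of 1920 and 1540 CPM, but CDH1, EPCAM and TP63 were near 0, at medians of 0.0786, 0.302 and 0.0402 CPM. Of the 4 mesenchymal markers, 0 were called higher in MDA-MB-231 in normoxia. FN1 and SPARC stood at medians of 2950 and 136 CPM in MCF10A and of 132 and 0.311 CPM in MDA-MB-231, and VIM at 2620 and 3970 CPM, so these genes do not mark the carcinoma line here. ZEB1 stood at 18.8 and 61.9 CPM. The fibroblast marker DCN had a median of 110 CPM in MCF10A and 0.0295 CPM in MDA-MB-231, while COL3A1 was at or near 0 in both, at 0 and 0.164 CPM. Of the leucocyte markers, PTPRC, CD3E and LYZ had medians of 0.0329, 0 and 0 CPM in MCF10A and of 0.595, 0 and 0.402 CPM in MDA-MB-231.

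Some MCF10A libraries stood apart in their content of short mRNAs, which bears on genes as short as these. The summed level of 27 short mRNAs outside the family, such as those of small respiratory chain subunits, was 26540 and 23150 CPM in the second HPP and NPP libraries of T and 16400 and 9666 CPM in the first. It was 13900 and 20520 CPM in the H libraries of T and 11190 and 10160 CPM in the N libraries. In P it was 32750 CPM in the first H library and 10880 CPM in the second, and 25360 and 8931 CPM in the N libraries. In MDA-MB-231 the sum ran from 6498 to 16400 CPM, highest in the first H library of P. Over the 16 MCF10A libraries, log2 MT2A tracked the mean of these mRNAs with r = 0.903 and MTF1, a long mRNA, with r = −0.62, values that describe libraries sharing depth and scaling. Results were therefore also computed with a length offset, in which each library's smooth trend of expression against transcript length (span 0.3) is taken out. The trend is fitted over all tested genes of known length, ribosomal protein mRNAs and the 27 short mRNAs included. In P of MCF10A under HPP, ribosomal protein mRNAs had a median change of −2.8 and the short mRNAs of −0.92. With PP242 the offset in P can thus also take out a change of short mRNAs under the drug. The MT2A change in that comparison was −0.35 without the offset and 0.43 with it. The parts of PP242, RNA recovery and fragment selection in this trend were not tested.

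**Figure D1:**
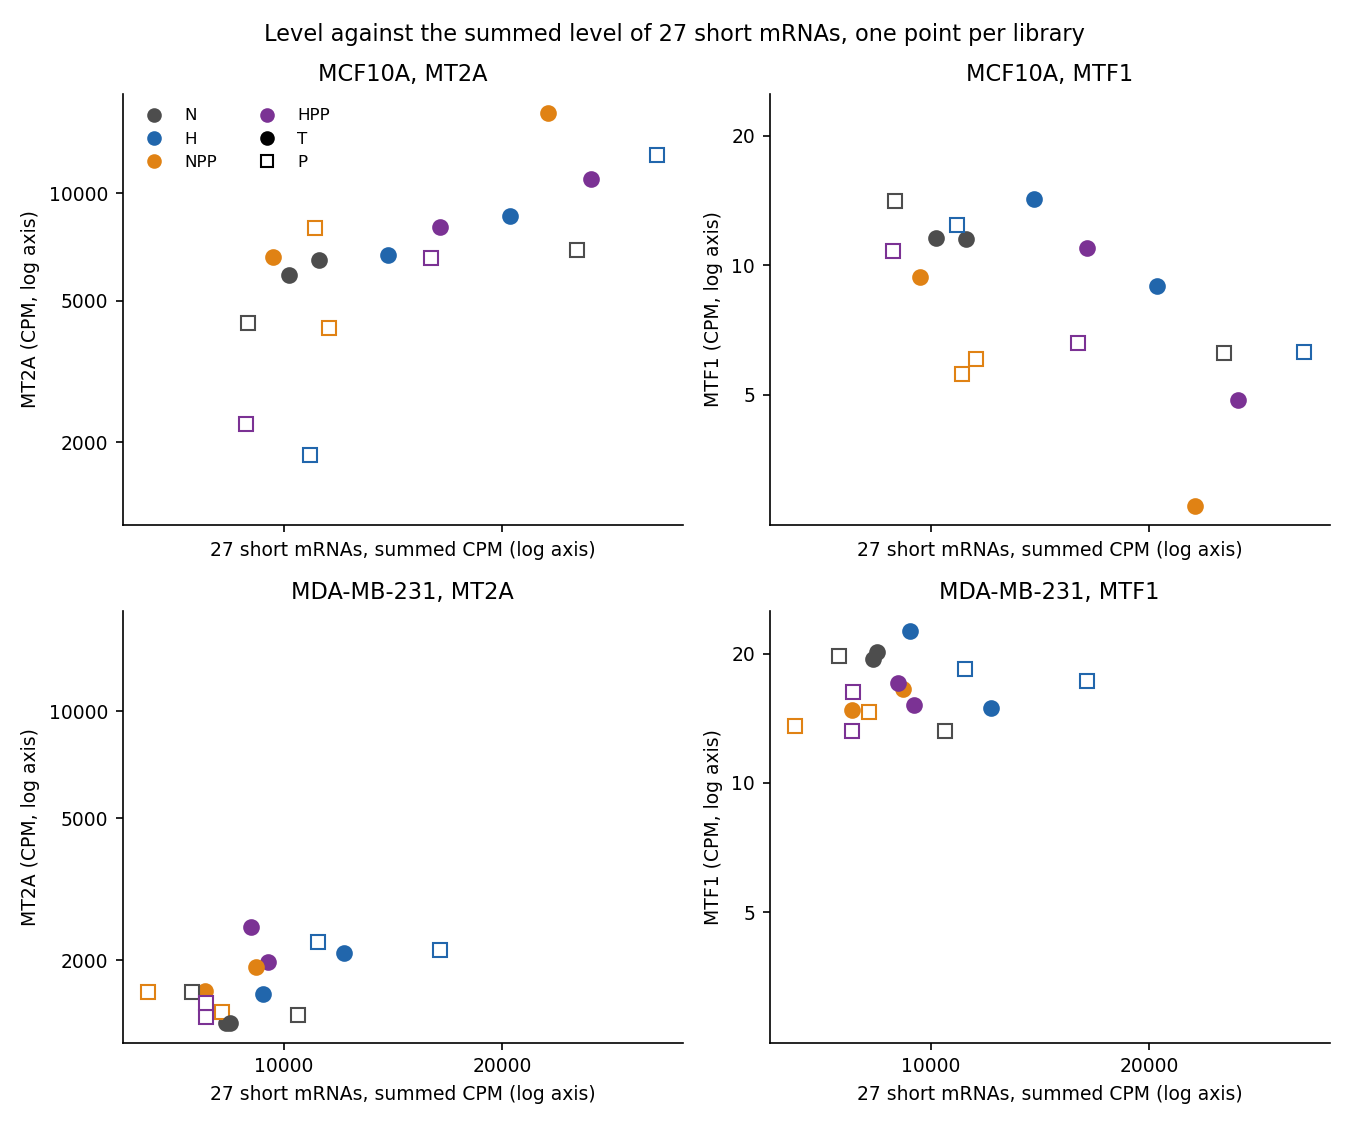
Level of MT2A (left) and MTF1 (right) in CPM against the summed CPM of 27 short mRNAs, on log axes, for MCF10A (top) and MDA-MB-231 (bottom); each point is a library, coloured by condition, filled for T and open for P. In MCF10A the NPP library of T with 23150 CPM of short mRNAs has the highest MT2A level, 16800 CPM, and the lowest MTF1 level, 2.76 CPM.

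MT2A was the most abundant of the 7 genes in each library, and the family was far higher in MCF10A. Per transcript length, in the T libraries of MCF10A, MT2A stood at 26800 to 42600 TPM, MT1E at 2800 to 6010, MT1X at 824 to 3620, MT1F at 12.2 to 39.8 and MTF1 at 0.354 to 3.41. In the T libraries of MDA-MB-231 the same genes stood at 5830 to 11400, 439 to 924, 340 to 866, 5.86 to 14.4 and 2.79 to 5.57 TPM. MT2A exceeded MT1E in 16 of 16 libraries of each line, by 6.44 to 11.6 times per length in MCF10A and by 9.57 to 19.3 times in MDA-MB-231. MT1X exceeded MT1F in 16 of 16 libraries of each line as well, by at least 49 times. MT1E and MT1X were not separated in this order, since MT1E was the higher in 15 of 16 MCF10A libraries and in 9 of 16 MDA-MB-231 libraries. MT1F and MTF1 were close in MDA-MB-231, where MT1F was higher per length in 14 of 16 libraries. The 6 metallothionein genes together took 0.249% to 1.62% of the counts of an MCF10A library and 0.156% to 0.299% of an MDA-MB-231 library. Within the family MT2A held 72.3% to 84% of the counts in MCF10A.

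**Figure D2:**
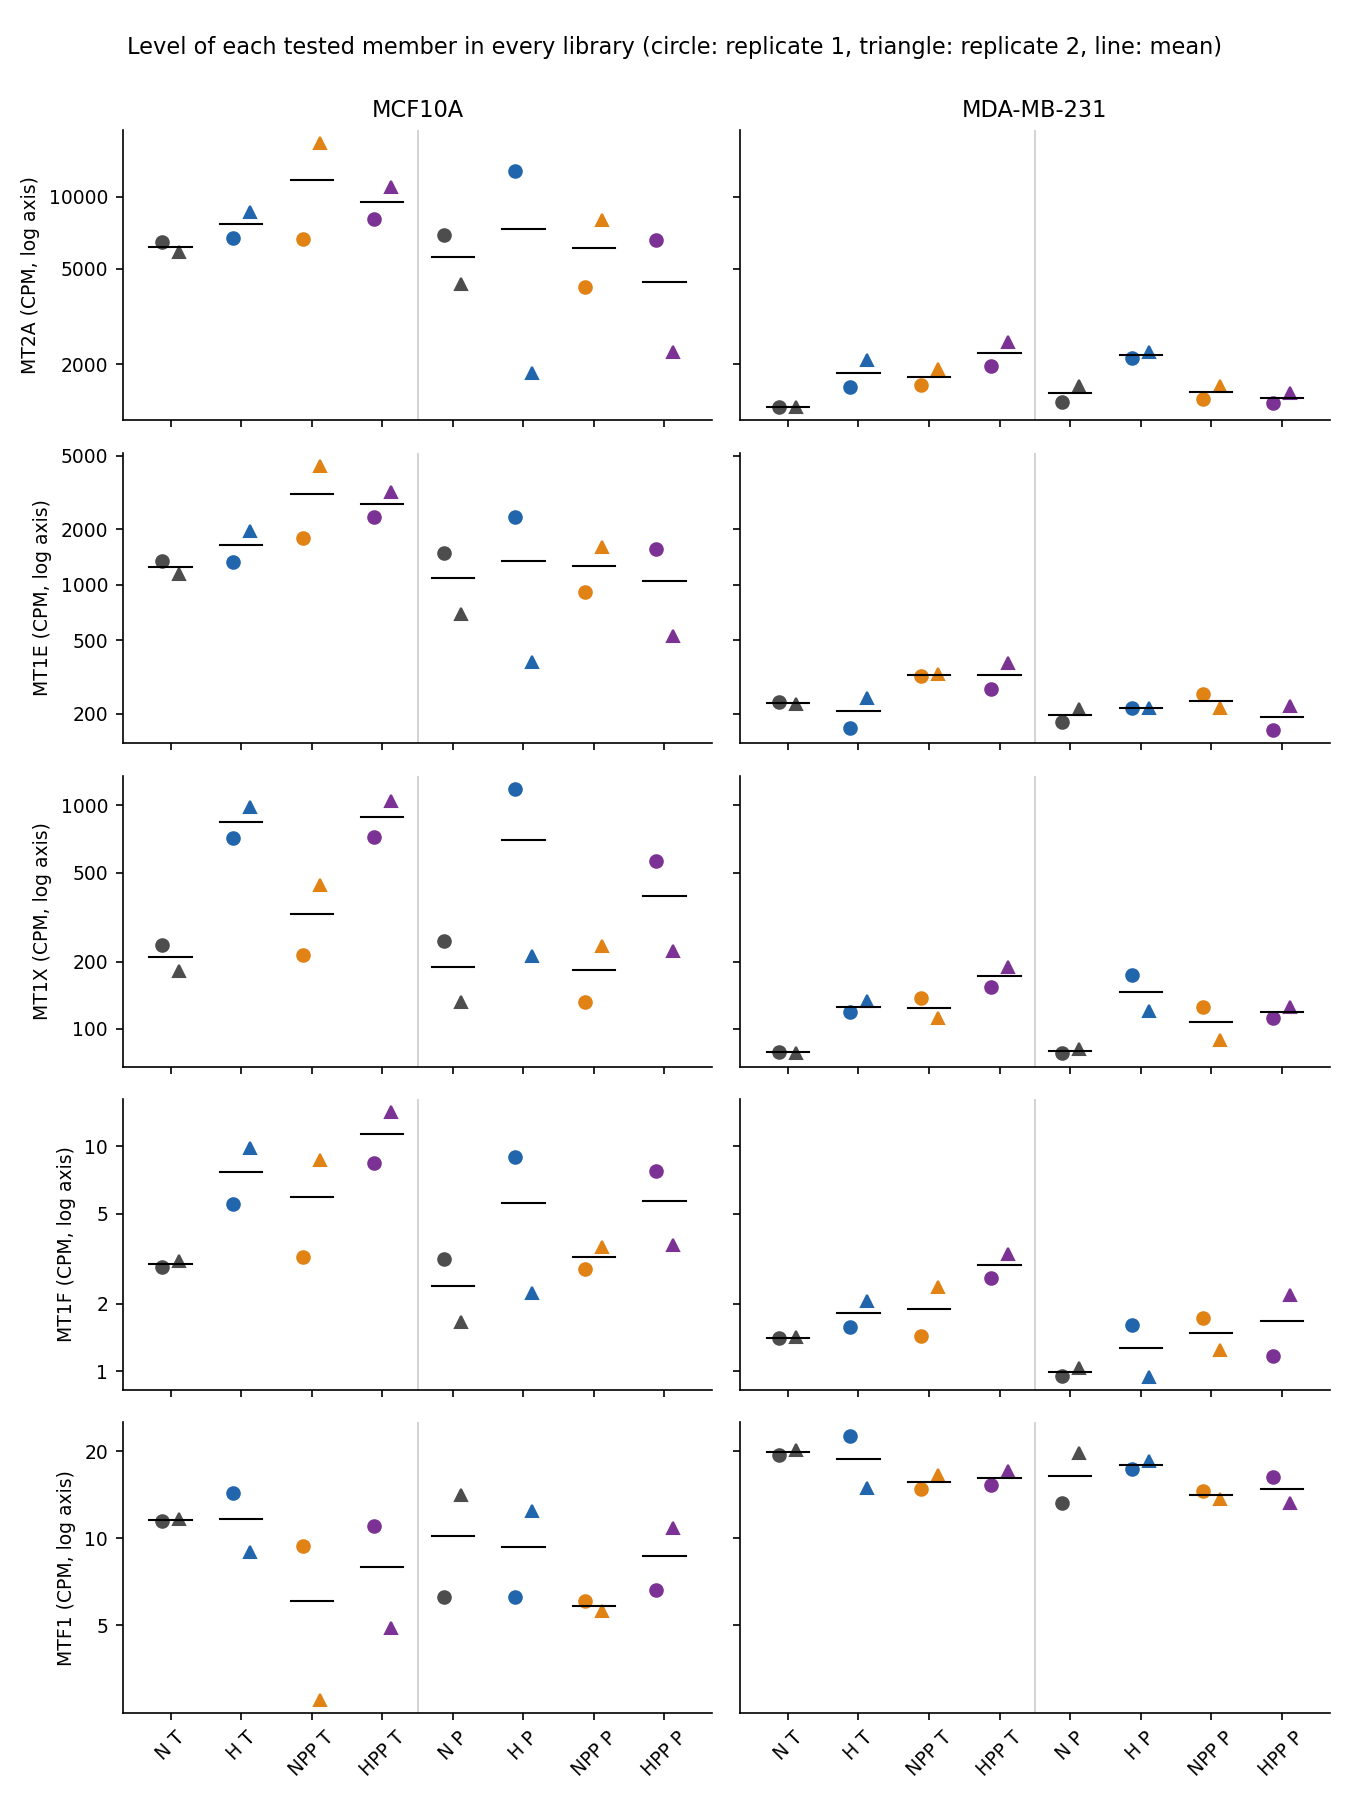
CPM on log axes of the 5 genes that passed the filter in every library, by condition and fraction, with circles for replicate 1, triangles for replicate 2 and a line for the mean of 2. The MCF10A replicates of P lie far apart, with MT2A at 12800 and 1840 CPM in H, while in MDA-MB-231 MT2A replicates lie close together, at 2130 and 2250 CPM in H, and those of the weakly expressed MT1F lie further apart.

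In normoxia 4 metallothioneins were lower in MDA-MB-231 than in MCF10A, and MTF1 was not among the genes called. On a scale set over all 32 libraries, MT2A had 7630 and 6960 CPM in the N libraries of T from MCF10A and 1150 and 1120 CPM in those from MDA-MB-231. MT1E had 1590 and 1350 CPM against 200 and 189 CPM, and MT1X had 279 and 216 CPM against 68.6 and 65.5 CPM. MT1F had 3.4 and 3.66 CPM against 1.21 and 1.19 CPM. The groups did not overlap for any of these 4 genes. In a fit of all 32 libraries, MDA-MB-231 against MCF10A gave −2.69 (SE 0.61, adjusted p = 0.0012) for MT2A and −2.92 (SE 0.62, adjusted p = 0.000623) for MT1E. The same contrast gave −1.88 (SE 0.55, adjusted p = 0.00834) for MT1X and −1.55 (SE 0.59, adjusted p = 0.0395) for MT1F. MTF1, at 13.5 and 13.7 CPM in MCF10A and 16.9 and 16.9 CPM in MDA-MB-231, gave 0.31 (SE 0.46, adjusted p = 0.627). Of all 14298 genes tested, 40.7% were called between the lines, so a call here is common, and 4 of the 5 tested members had one. The median change was −1.88 over the 5 members and −0.03 over all genes. Without the second N library of T from MDA-MB-231 the calls of MT1X (adjusted p = 0.0596) and MT1F (adjusted p = 0.138) were lost, and that of MT1F was lost without any 1 of the 4 libraries compared.

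Most genes of a glucocorticoid list moved the same way as the metallothioneins between the lines. The list holds genes that glucocorticoids induce and the receptor gene, NR3C1. Beside the 40.7% of all genes called in this contrast, 6 of 8 listed genes were lower in MDA-MB-231 and 0 higher, with a median of −2.71. Among them were FKBP5, a chaperone of the receptor, at −3.78 (SE 0.35, adjusted p = 2.1e-08) and the feedback regulators PER1 at −2.86 and TSC22D3 at −1.90. Hydrocortisone, a glucocorticoid, was in the medium of MCF10A alone, and its part in the metallothionein difference cannot be told apart from that of the line. Of the 27 short mRNAs, 4 were lower in MDA-MB-231, with a median of −0.67, a smaller share than over all genes. Of 11 zinc importers of the ZIP family tested, 5 were lower and 2 higher, with a median of −0.56. The 2 higher were SLC39A8 at 1.00 (SE 0.18, adjusted p = 0.000101) and SLC39A7, which releases zinc from the endoplasmic reticulum, at 0.80 (SE 0.21, adjusted p = 0.00333). Of 9 copper genes, 3 were lower and 0 higher, with a median of −0.51. Of 7 zinc exporters of the ZnT family tested, SLC30A3 was higher at 1.58 and SLC30A5 lower at −0.51. Of 8 MTF1 targets and partners outside the family, the growth factor PGF at 5.37 and the coactivator EP300 at 3.28 were higher and none was lower.

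Hypoxia in MCF10A was accompanied by more MT1X and MT1F, but neither passed the threshold in the fit of the line's 16 libraries. MT1X had 712 and 978 CPM in H against 238 and 182 CPM in N in the T libraries, groups that did not overlap, with a change of 2.01 (SE 0.72, adjusted p = 0.284). In P it had 1180 and 213 CPM against 247 and 132 CPM, where the low H library falls among the N libraries, and the change was 1.87 (SE 0.72, adjusted p = 0.286). MT1F had 5.55 and 9.76 CPM against 2.9 and 3.1 CPM in T, a change of 1.35 (SE 0.66, adjusted p = 0.514). MT2A, the main member, had 6710 and 8660 CPM in H against 6500 and 5890 CPM in N, a change of 0.31 (SE 0.77, adjusted p = 1). MT1E, next in abundance, had 1320 and 1950 CPM against 1350 and 1140 CPM, groups that overlap, a change of 0.39. Hypoxia called 0 of 5 members in T and 0 of 5 in P, where 1.54% and 1.49% of all genes were called. Their median changes were 0.39 and 0.38, against −0.03 and −0.07 over all genes. Over H, NPP and HPP together, 3 of 15 tests of members in T and 1 of 15 in P had an unadjusted p under 0.05 in edgeR, beside 16.5% and 20.7% of all tests. DESeq2 called 2 in T and 0 in P. Over all genes it called 3.83% for H, 2.73% for NPP and 20.9% for HPP in T, and 4.24%, 5.07% and 28.3% in P. The 27 short mRNAs had a median change of −0.02 for H in T with 0 called, although their summed level was higher in both H libraries than in N. Fitted to only the 4 libraries compared, both genes rose in T under hypoxia, MT1X by 2.02 (adjusted p = 0.00456) and MT1F by 1.36 (adjusted p = 0.0474), where 4.72% of all genes were called. The T libraries of MCF10A were treated as paired by replicate number because their deviations correlated, although no pairing is stated. With a replicate block within each fraction no member was called for hypoxia in T (MT1X adjusted p = 0.113), where 3.34% of all genes were.

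With the length offset, hypoxia raised MT1X and MT1F in MCF10A in both fractions. MT1X rose by 1.89 (SE 0.32, adjusted p = 0.00608) in T and by 1.61 (SE 0.31, adjusted p = 0.0138) in P. MT1F rose by 1.21 (SE 0.24, adjusted p = 0.017) in T and by 1.06 (SE 0.25, adjusted p = 0.0316) in P. MT2A changed by 0.19 in T and was not called in any MCF10A comparison with the offset. The offset also widened the calls over all genes, to 3.86% in T and 5.20% in P, of which these 2 of 5 members are part.

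MT1X was also higher relative to MT2A, a measure that compares transcripts of 404 and 401 bases within 1 library and so does not depend on library scaling. In the T libraries of MCF10A there were 8.93 to 11.3 MT1X counts per 100 MT2A counts in the 4 low-oxygen libraries (H and HPP) and 2.61 to 3.66 in the 4 others, a ratio of 3.21. In P the ranges were 8.53 to 11.6 and 2.93 to 3.57, a ratio of 3.08. The groups did not overlap in either fraction, and the first and second H libraries of P, which differ many times over in MT2A itself, stood at 9.2 and 11.6. MT1F per 100 MT2A counts was higher too, by 2.15 times in T and 2.35 times in P, without overlap, while MT1E overlapped between the groups. An exact two-sided permutation test of 4 against 4 libraries gave p = 0.0286 for each of MT1X and MT1F in each fraction, the smallest it can give, and 0.0686 after adjustment over 12 such ratios. With arrangements limited to libraries of equal replicate number, taken as a pairing in T, the p was 0.0556 for each, again the smallest that this exact test can give. This ratio was chosen after the values had been seen, and the difference between MT1X and MT2A includes any reads that RSEM divided between them.

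**Figure D3:**
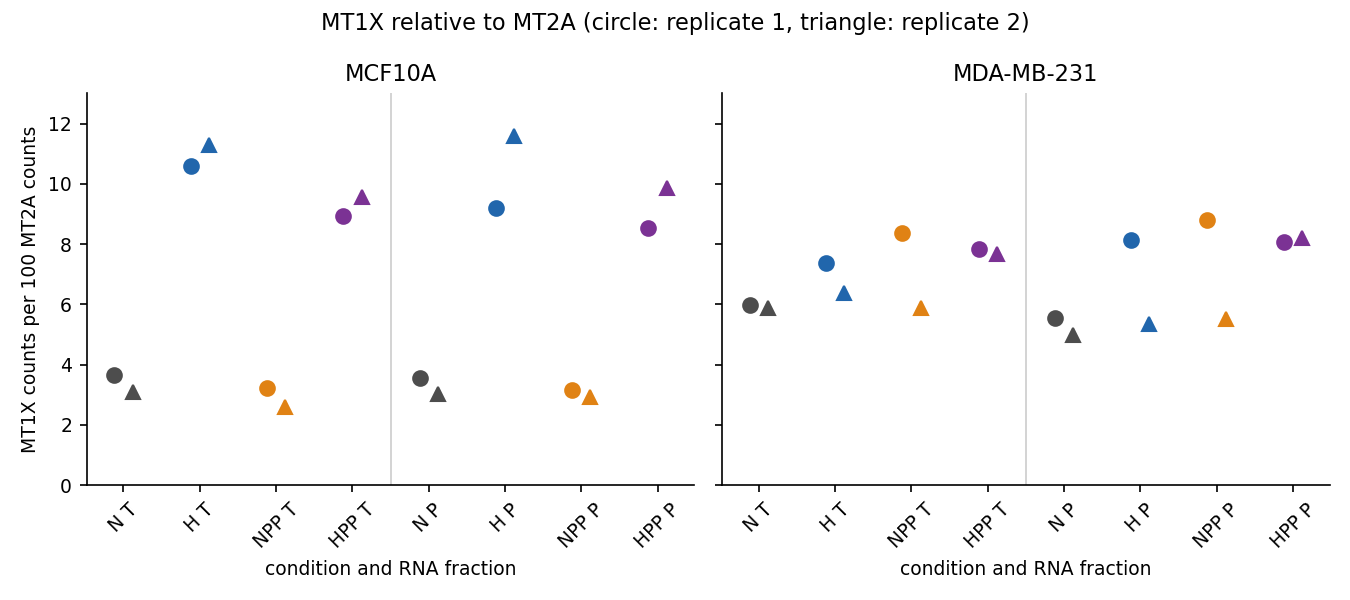
MT1X counts per 100 MT2A counts in every library, by condition and fraction, with circles for replicate 1 and triangles for replicate 2. In MCF10A all 8 low-oxygen libraries lie between 8.53 and 11.6 and the 8 others between 2.61 and 3.66, while in MDA-MB-231 the groups overlap.

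In MDA-MB-231 the MT1X to MT2A ratio did not separate the libraries by oxygen. MT1X per 100 MT2A counts ran from 6.38 to 7.83 in low oxygen and from 5.87 to 8.38 otherwise in T (exact permutation p = 0.343), and in P the groups overlapped as well (p = 0.457, exact permutation). MT1E did separate them in T, with 10.4 to 15.1 counts per 100 MT2A counts in low oxygen and 16.9 to 19.5 otherwise, a ratio of 0.712 (exact permutation p = 0.0286, 0.0686 after adjustment, 0.0556 within replicate numbers), but not in P. Whether the ratio responds differently in the 2 lines was not tested.

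In the edgeR fit of filtered genes, PP242 in normoxia called no member in either line without the length offset. In MCF10A the 2 NPP libraries of T lay far apart. The second held 16800 CPM of MT2A and 4400 CPM of MT1E, and the first 6640 and 1790 CPM. In N, MT2A had 6500 and 5890 CPM and MT1E 1350 and 1140 CPM. MT2A, MT1E and MT1F lay above normoxia without overlap, MT2A by little in the first library, while MT1X overlapped. The second NPP library also had the high sum of short mRNAs given above. The changes in T were 0.92 (SE 0.78, adjusted p = 0.767) for MT2A and 1.31 (SE 0.77, adjusted p = 0.655) for MT1E, and in P they were 0.12 for MT2A and −0.05 for MT1X. Over all genes 0.648% were called in T, or 1.70% with the replicate block within each fraction, and 0.823% in P. These shares were 2.22% and 6.09% with the length offset, under which MT1F in P was the 1 member called, at 1.10 (SE 0.25, adjusted p = 0.0249). Without the offset MT1F changed by 0.43 (SE 0.67, adjusted p = 0.865) in P, where its groups overlap. In MDA-MB-231 MT1X had 124 ± 17.7 CPM (SD, n = 2) in NPP, the higher library at 137, against 79.1 and 78.3 CPM in N in T, a change of 0.67 (SE 0.20, adjusted p = 0.183). DESeq2 called this MT1X change, at 0.68 (adjusted p = 0.0427), beside 1.86% of all genes. Without the filter for weakly counted genes edgeR called it too, at 0.72 (adjusted p = 0.00893), beside 1.68%. MT2A had 1640 and 1910 CPM against 1330 and 1330 CPM, a change of 0.42 (adjusted p = 0.363). Both genes lay above normoxia without overlap, while 0.555% of all genes were called in T and 1.95% in P, or 1.03% and 2.88% with the offset.

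Hypoxia with PP242 gave MCF10A its highest mean MT1F level in T, while MT1X was near its level under hypoxia alone. Mean MT1X was 884 CPM in HPP and 845 CPM in H, but on the TPM scale it was 3100 in HPP and 3480 in H. MT1X had 719 and 1050 CPM in HPP against 238 and 182 CPM in N, a change of 2.08 (SE 0.72, adjusted p = 0.0759). MT1F had 8.44 and 14.1 CPM against 2.9 and 3.1 CPM, a change of 1.91 (SE 0.67, adjusted p = 0.0804). MT2A had 8060 and 11000 CPM, a change of 0.62 (SE 0.78, adjusted p = 0.656), and MT1E had 2330 and 3170 CPM, a change of 1.14 (SE 0.77, adjusted p = 0.37). All 4 genes lay above normoxia without overlap in T, where the summed short mRNAs of both HPP libraries did so too, with a median change of 0.05 over the 27 genes. In P, MT2A had 6590 and 2260 CPM against 6940 and 4330 CPM, groups that overlap, a change of −0.35. MT1X overlapped in P as well, with a change of 1.05 (SE 0.70, adjusted p = 0.305). MT1F did not overlap there, with a change of 1.25 (SE 0.67, adjusted p = 0.201). HPP called 0 of 5 members in each fraction, where 14.9% of all genes were called in T and 22.2% in P. With the replicate block within each fraction MT1X rose in T by 2.01 (SE 0.59, adjusted p = 0.0278) and MT1F by 1.84 (SE 0.46, adjusted p = 0.014), among 26.5% of all genes called. A replicate block without the split by fraction called neither gene, where 15.9% of all genes were called. Fitted to only the libraries compared, MT1X and MT1F were both called (adjusted p = 0.0255 and 0.0342), among 9.57% of all genes. With the offset the shares of T and P were 26.6% and 34.4%, and MT1X rose by 1.70 (adjusted p = 0.00225) in T and 1.91 (adjusted p = 0.000879) in P, MT1F by 1.51 (adjusted p = 0.00099) and 2.13 (adjusted p = 9.73e-05).

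In MDA-MB-231 hypoxia raised MT1X on polysomes. MT1X had 174 and 120 CPM in H against 77.8 and 81.6 CPM in N in P, groups that did not overlap, a rise of 0.88 (SE 0.20, adjusted p = 0.0304), or 1.84 times. It was the 1 of 5 members called there, where 2.29% of all genes were. The call was lost with the length offset, at 0.41 (SE 0.22, adjusted p = 0.318), where 4.71% of all genes were called. In these libraries 5 of the 27 short mRNAs rose and 0 fell, with a median of 0.62, and the first H library, which had the higher MT1X level, had the highest sum of short mRNAs. Without either N library of P the MT1X call was lost as well. In T, MT1X had 119 and 133 CPM against 79.1 and 78.3 CPM, also without overlap, a change of 0.68 (SE 0.20, adjusted p = 0.125). MT2A had 1610 and 2090 CPM against 1330 and 1330 CPM in T, a change of 0.48 (SE 0.16, adjusted p = 0.205), and 2130 and 2250 CPM against 1400 and 1630 CPM in P, a change of 0.53 (SE 0.16, adjusted p = 0.11). MT1E, at 168 and 244 CPM in H against 231 and 225 CPM in N in T, changed by −0.15. In T 1.27% of all genes were called, or 1.81% with the offset, and 0 members in either. DESeq2 called MT1X in T, at 0.69 (adjusted p = 0.0289), beside 2.61% of all genes. Without the filter for weakly counted genes edgeR called it too, at 0.72 (adjusted p = 0.00619), beside 2.6%.

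Hypoxia with PP242 raised MT1X and MT2A in the total mRNA of MDA-MB-231. MT1X had 154 and 190 CPM in HPP against 79.1 and 78.3 CPM in N, a rise of 1.13 (SE 0.20, adjusted p = 0.00258), or 2.19 times. MT2A had 1970 and 2480 CPM against 1330 and 1330 CPM, a rise of 0.74 (SE 0.16, adjusted p = 0.00974), or 1.67 times. Neither pair of groups overlapped. The MT2A call was lost when the second N or the second HPP library of T was left out, and that of MT1X was kept. MT1F, at 2.6 and 3.32 CPM against 1.4 and 1.42 CPM, changed by 1.07 (SE 0.37, adjusted p = 0.07), and MT1E, at 272 and 375 CPM against 231 and 225 CPM, by 0.50 (SE 0.20, adjusted p = 0.111). Over all genes 13.2% were called in T, 853 of them up, and 2 of 5 members, both up. The 27 short mRNAs had a median change of −0.21 here and 1 rose, while their summed level, 9496 and 9023 CPM in HPP, lay above the 8333 and 8429 CPM of N. With the length offset 4 members rose, MT1X by 1.23, MT1F by 1.16, MT2A by 0.84 and MT1E by 0.59 (adjusted p = 0.00285, 0.0186, 0.00592 and 0.0394), among 18.1% of all genes called. The median over the 5 members was 0.74 and that over all genes −0.05.

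On polysomes the MT2A level under the same treatment depended on the scale. MT2A had 1380 and 1520 CPM in HPP against 1400 and 1630 CPM in N, a change of −0.06 (SE 0.16). As TPM it had 8100 and 8600 against 5970 and 7510, without overlap. Between libraries the length of 1 gene cancels, so its TPM and CPM differ only in how each library is scaled. Ribosomal protein mRNAs in P summed to 107200 and 94810 CPM in N and to 26320 and 27720 CPM in HPP. Their part in the TPM values was not tested. With the length offset the MT2A change was 0.42 (SE 0.18, adjusted p = 0.103). MT1X had 118 ± 9.19 CPM (SD, n = 2) against 77.8 and 81.6 CPM, a change of 0.57 (SE 0.19, adjusted p = 0.0531). A replicate block called more tests of members in P of this line, as counted in the last section. With PP242 added in hypoxia, MT2A fell in P from 2130 and 2250 CPM to 1380 and 1520 CPM, a change of −0.59 (SE 0.16, adjusted p = 0.0308) without overlap. The direction of this change turned with the length offset, to 0.36 (adjusted p = 0.211), and the call was also lost when any 1 of the 4 libraries compared was left out. In that comparison 22 of the 27 short mRNAs fell and 0 rose, with a median of −0.99, and 78 of 82 ribosomal protein mRNAs fell, with a median of −1.85. With the offset MT1X was called in P for HPP at 1.05 (SE 0.22, adjusted p = 0.0051), and MT1F was called too, also upwards (adjusted p = 0.0146). Without the offset MT1F changed by 0.76 (SE 0.38, adjusted p = 0.176) there. For PP242 within hypoxia the offset called MT1E in T at 0.82 (SE 0.18, adjusted p = 0.0194) and MT1F in P at 1.32 (SE 0.30, adjusted p = 0.0143). Without it these changes were 0.65 (SE 0.20, adjusted p = 0.087) and 0.42 (SE 0.37, adjusted p = 0.514). For HPP in P the share of all genes called was 19.4%, or 23.4% with the offset. For PP242 within hypoxia it was 3.78% in T and 11.5% in P, or 6.20% and 11.8% with the offset. In MCF10A the latter comparison called 0 of 5 members in each fraction, where 3.74% and 6.50% of all genes were called. The share in T was 8.79% with the replicate block within each fraction, again with 0 members. With the offset the shares were 9.56% and 15.2%, under which MT1F rose in P by 1.06 (SE 0.24, adjusted p = 0.0127). Without the offset that change was 0.04 (SE 0.65, adjusted p = 0.984).

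**Figure D4:**
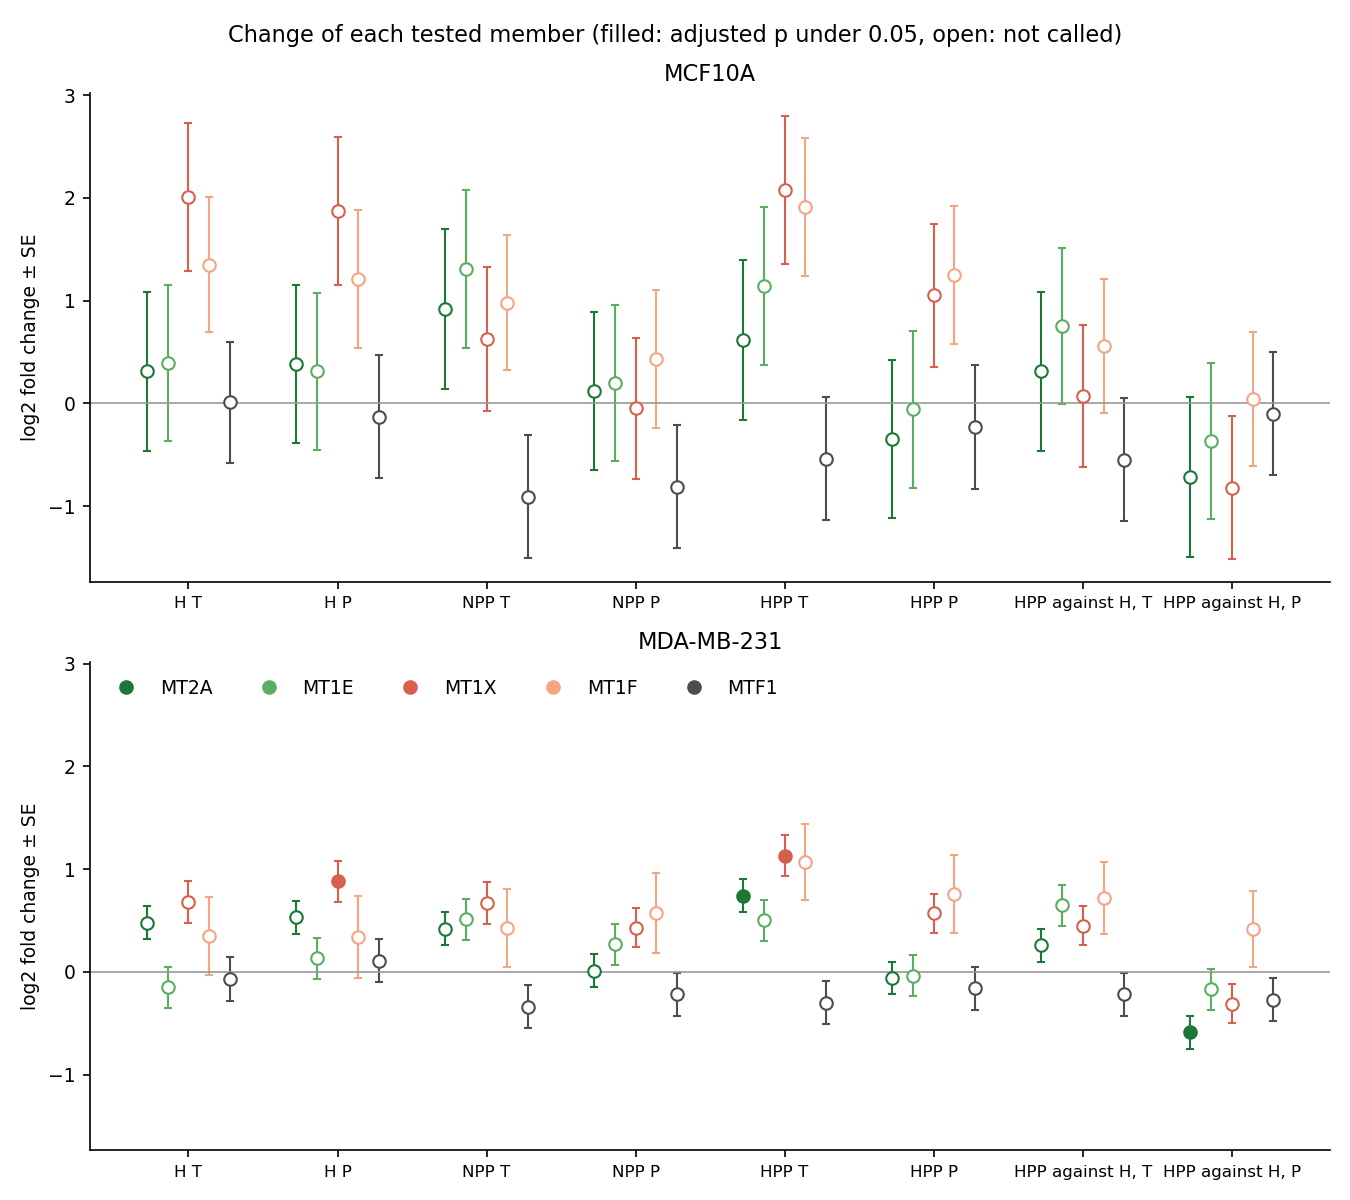
Log2 fold change and SE of the 5 tested genes for each treatment against normoxia and for HPP against H, in T and P, from the edgeR fit; filled points had an adjusted p under 0.05. In MCF10A the bars are long and no point is filled, while in MDA-MB-231 MT1X is filled for H in P, MT1X and MT2A for HPP in T, and MT2A for HPP against H in P, below 0.

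Translational efficiency (Te), the log2 change in P minus that in T, was called for no member in edgeR. Of 15 tests in each line, 0 in MCF10A and 1 in MDA-MB-231 had an unadjusted p under 0.05, and DESeq2 called 0 and 1. Without the length offset the Te of the metallothioneins in HPP was below 0 in both lines. It was −0.80 (SE 0.23) for MT2A, −0.54 for MT1E, −0.56 for MT1X and −0.31 for MT1F in MDA-MB-231. With the offset, the HPP changes of MT1X and MT1F in MCF10A given above were larger in P than in T, so their direction turned. In MDA-MB-231 the HPP Te with the offset stayed below 0 for MT2A, MT1E and MT1X, at −0.43, −0.32 and −0.18. For MT1F it was 0.04 (SE 0.43). The offset called the Te of 0 of 5 members under HPP in each line. For MT2A the adjusted p was 0.359 in edgeR, and DESeq2 called it at −0.86 with an adjusted p of 0.0117, beside 1.07% of all genes. MT2A Te in MCF10A was −0.97 under HPP and −0.80 under NPP without the offset. With the offset its direction turned, to 0.18 (SE 0.53) and 0.31 (SE 0.53), while MT1E under HPP stayed below 0, at −0.32. Without the offset, the 27 short mRNAs outside the family had median Te of −1.10 and −0.94 in these 2 comparisons, close to MT2A. Their median was −0.21 in MDA-MB-231 under HPP. Ribosomal protein mRNAs, the known targets of mTOR in translation, had a median Te of −1.78 in MDA-MB-231 under HPP, and 73 of 82 fell. Over all genes the share called for Te was 0% for H, NPP and HPP in MCF10A, where 23, 296 and 433 genes had an unadjusted p under 0.05 and DESeq2 called 0, 94 and 140. It was 0.0148%, 0.34% and 0.696% in MDA-MB-231, or 0.0148%, 0.0592% and 0.555% with a block for the culture that T and P share, which called no member in either line (MT2A under HPP in MDA-MB-231, adjusted p = 0.375). In normoxia, P against T gave MT2A −0.14 (MCF10A) and 0.19 (MDA-MB-231), and no member was called, with 0 of 5 in each line at an unadjusted p under 0.05 in edgeR and 0 called by DESeq2. The share of all genes called for that contrast was 0% in MCF10A, where 1660 had an unadjusted p under 0.05 and DESeq2 called 0.77% of all genes, and 13.1% in MDA-MB-231.

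The responses of the 2 lines were compared directly, and no difference was called for a member. The MT1X response to hypoxia in T, 0.68 in MDA-MB-231 and 2.01 in MCF10A, gave −1.29 (SE 0.75, adjusted p = 0.808) for the difference. Called over all genes were 0.266% for H, 0.056% for NPP and 3.31% for HPP in T, and 0.329%, 0.126% and 3.60% in P. Of the 30 tests of members, 0 had an unadjusted p under 0.05 in edgeR or in DESeq2, so the larger MT1X values of MCF10A are not shown to be a larger response, nor are the responses shown to be alike.

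MTF1 mRNA was low and did not pass the threshold in any comparison. In T of MCF10A it had 14.3 and 8.95 CPM in H, 9.4 and 2.76 CPM in NPP and 11 and 4.87 CPM in HPP, against 11.5 and 11.6 CPM in N. Both PP242 groups lay below normoxia, with changes of −0.91 (SE 0.60, adjusted p = 0.705) for NPP and −0.54 for HPP, and the lowest value came from the second NPP library, whose short mRNAs summed to 23150 CPM. In MDA-MB-231 it had 22.6 and 14.9 CPM in H, 14.8 and 16.5 CPM in NPP and 15.2 and 17.1 CPM in HPP, against 19.4 and 20.2 CPM in N. The changes there were −0.07 (SE 0.21), −0.34 and −0.30 in T, and 0.11, −0.22 and −0.16 in P.

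MT1G and MT1M were barely detected. MT1G had 0 to 4 counts per library in MCF10A, 20 in all, and 0 to 2 in MDA-MB-231, 8 in all. MT1M had 1 count in 1 of 16 libraries of each line. A count of 0 allows up to 3 counts, which is 0.0601 to 0.126 CPM in an MCF10A library and 0.0715 to 0.171 CPM in an MDA-MB-231 library, for counting error only.

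Of 13 other metallothionein genes and pseudogenes, 0 were tested in MCF10A and 2 in MDA-MB-231, MT1A and MT3, since only protein-coding genes that passed the filter were tested. The pseudogene MT2P1 had 20 to 139 counts in the 8 low-oxygen libraries of MCF10A and 50 to 121 in the 8 others, groups that overlap, and 6 to 30 counts in MDA-MB-231. MT1A had 1 count over the 16 MCF10A libraries and 73 to 158 counts in each MDA-MB-231 library. MT3, known from brain, had 8 to 18 counts in each of the 8 low-oxygen libraries of MDA-MB-231 and 0 to 4 in the 8 others, without overlap, and 0 to 5 in MCF10A. MT3 passed the filter only through the low-oxygen groups, so no test or fold is given for it. MT1B, which did not pass the filter, had 31 counts over the 8 low-oxygen libraries of MCF10A and 6 over the 8 others. In T it had 4 and 5 counts in H and 7 and 7 in HPP, against 0 to 3 without hypoxia, while in P the groups overlapped.

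Genes of zinc and copper handling are given for hypoxia with PP242, where calls were common over all genes, 14.9% in T and 22.2% in P of MCF10A and 13.2% in T of MDA-MB-231. Of 8 MTF1 targets and partners tested, HPP raised 2 in P of MCF10A, the zinc exporter SLC30A1 by 1.80 (SE 0.59, adjusted p = 0.0495) and the transcription factor KLF4 by 1.41 (SE 0.32, adjusted p = 0.00868). Of 7 zinc exporters, SLC30A1 was the 1 called in MCF10A, and SLC30A7, which fills the Golgi with zinc, fell in T of MDA-MB-231 by 0.67 on the log2 scale (SE 0.13, adjusted p = 0.00526). Of 11 zinc importers, SLC39A3 fell in P of MCF10A, at −1.61 (SE 0.53, adjusted p = 0.0494), and SLC39A13 rose in T of MDA-MB-231, by 0.71 (SE 0.16, adjusted p = 0.01). Of 9 copper genes, the transporter SLC31A2 rose in T of both lines, by 1.35 (SE 0.31) in MCF10A and 0.58 (SE 0.18) in MDA-MB-231, and SCO1, which delivers copper to cytochrome oxidase, fell in both, at −1.04 (SE 0.25) and −0.59 (SE 0.12). The third copper gene called in T of MCF10A was ATP7B, at −1.70 (SE 0.50, adjusted p = 0.0419). The copper chaperones ATOX1 and COX17, whose mRNAs are short, rose in P of MDA-MB-231 under hypoxia, by 0.82 and 0.81, where 2.29% of all genes were called, and fell when PP242 was added, by 1.22 and 0.94 on the log2 scale, where 11.5% were. In P of MDA-MB-231 under HPP, SLC30A7 fell by 0.41 and SCO1 by 0.47 on the log2 scale, and SLC39A13 rose by 0.69 and SLC31A2 by 0.80, beside 19.4% of all genes called.

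Of the 8 genes of the glucocorticoid list, the receptor gene NR3C1 included, HPP raised 2 in T and 5 in P of MCF10A and lowered 0. Beside them 14.9% and 22.2% of all genes were called, and TSC22D3 led at 3.66 (SE 0.51, adjusted p = 0.00105) in T. In T of MDA-MB-231 TSC22D3 rose by 0.96 (SE 0.21) and FKBP5 fell, at −0.86 (SE 0.17), the 2 called of 7 tested, beside 13.2% of all genes. In P of this line 3 were called, TSC22D3 and DUSP1 upwards and FKBP5 downwards, beside 19.4% of all genes. A list of 7 oxidative stress genes held targets of NRF2 and the gene of NRF2 itself, NFE2L2. Of these, 2 fell in T of each line under HPP and 0 rose, beside the same 14.9% and 13.2%. In P 1 fell in MCF10A and 3 in MDA-MB-231. GCLM, a subunit of the enzyme that starts glutathione synthesis, fell in both, at −1.15 (SE 0.30) in MCF10A and −0.88 (SE 0.18) in MDA-MB-231. The hypoxia genes of the label check rose in H in T, 6 of 8 in each line, with medians of 2.43 in MCF10A and 2.36 in MDA-MB-231.

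Genes outside the family with levels most like those of a member over the 16 libraries of a line were listed by their correlation of log2 CPM, as a description of libraries that share depth and scaling. For MT2A in MCF10A they were C11orf31, NEDD8, COX16, C12orf73 and DMKN, with r of 0.947 to 0.952. For MT1X in MCF10A they were HSF2BP, SEC61G, TMSB10, TNNT1 and HCFC1R1, with r of 0.924 to 0.971, and for MTF1 they were LUZP1, FAM120A, PPAT, GTF3C4 and ANKRD50, with r of 0.949 to 0.96. In MDA-MB-231 the highest r for MT2A was 0.832 (PRAF2) and for MT1X 0.843 (ACHE), while MTF1 reached 0.961 (NCOA6). Within the family in MCF10A, r was 0.968 between MT2A and MT1E, 0.925 between MT1F and MT1X, and 0.617 between MT2A and MT1X.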

How the data were processed

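The authors made poly(A) libraries (TruSeq RNA v2; no strand stated), aligned reads with STAR and deposited RSEM expected counts per gene, a table per line. The methods name GRCh38 with GENCODE v24, whereas the submitters' processing notes list GRCh37. The deposited expected counts were whole numbers, so rounding changed 0 values, and 0 columns lacked a sample. Protein-coding genes (97.4% to 99.2% of counts) were filtered by group, TMM-scaled and tested with the quasi-likelihood F test of edgeR 4.0.16 (R 4.3.3) with Benjamini-Hochberg adjustment, over 16 libraries of a line or all 32 between lines. DESeq2 1.42.0 served in alternatives, limma 3.58.1 was loaded beside edgeR without a test of its own, and the fits were tested on simulated data. Correlations used a prior count of 2. Alternatives were DESeq2, other scalings, filters and thresholds, replicate blocks, a length offset and leaving out libraries. Pairing was checked by correlating deviations of same-numbered libraries from their group means. In T of MCF10A all 6 correlations passed 0.1 (0.283 to 0.778). The replicate block within each fraction therefore stands beside those results where it changed calls. Members and lists were chosen with earlier results of these data known. Named were all members, some of the listed genes called (at most 6 per list) and the 5 genes outside the family most like MT2A, MT1X or MTF1. Lengths came from GENCODE v44 (for 99.5% of genes or more), promoters from RefSeq. By the numbers in the labels, the replicates of a group came from separate cultures.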

Additional observations from a re-analysis of the deposited data

How the results depend on the processing

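Calls of members were counted per line and fraction over H, NPP and HPP, and the share of all tests called at the same setting stands in brackets. In T of MCF10A the count of 0 (5.7%) became 2 at an adjusted p under 0.10 (8.4%), 2 with DESeq2 (9.15%), 1 without a filter (3.74%), 4 with only the libraries compared in the fit (4.79%), 2 with a replicate block within each fraction (10.5%), 4 with the length offset (10.9%) and 4 with the replicate block and the offset (12.9%). In P of MCF10A the count of 0 (8.16%) became 5 with the offset (15.2%) and 5 with the replicate block and the offset (17.6%), and for PP242 within hypoxia the count of 0 (5.12%) became 1 (12.4%) and 1 (14.8%). In T of MDA-MB-231 the count of 2 (5.01%) became 4 with DESeq2 (6.79%), 6 without a filter (5.31%), 4 with the offset (6.97%) and 4 with the replicate block and the offset (10.1%). In P of MDA-MB-231 the count of 1 (7.9%) became 2 at 0.10 (12%), 3 with DESeq2 (10.6%), 3 without a filter (7.7%), 3 with the replicate block (11%), 3 with the block within fraction (11.7%), 2 with the offset (10.3%) and 2 with both block and offset (14.5%). Te in MDA-MB-231 went from 0 (0.35%) to 1 with DESeq2 (0.624%). PP242 within hypoxia in MDA-MB-231 went from 1 (7.63%) to 2 at 0.10 (12.4%), with DESeq2 (11.3%), without a filter (7.34%), with the replicate block (11.7%), with the block within fraction (12.4%) and with the offset (8.98%), and to 3 with the replicate block and the offset (13.9%). MT2A in that comparison in P turned to 0.36 with the offset, with and without the block.

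Leaving out 1 library at a time gave 0 to 2 calls in T of MCF10A, 1 to 3 in T and 0 to 3 in P of MDA-MB-231, 0 to 1 for PP242 within hypoxia there and 2 to 4 between the lines. Without the second N or the second HPP library of T the count of 2 in T of MDA-MB-231 became 1. MT1E and MT2A between the lines kept their call in 43 of 43 alternatives, MT1X in 42 and MT1F in 37. In MDA-MB-231, MT1X for HPP in T kept it in 26 of 26, MT2A there in 24, and MT1X for H in P in 20, while MT2A for PP242 within hypoxia in P kept it in 20, lost it in 4 and turned in 2. Equal replicate numbers were taken as a pairing in T of MCF10A, although none is stated. There the replicate block within each fraction changed no other call of a member than those of MT1X and MT1F under HPP. Elsewhere equal numbers were not taken as a pairing between conditions, since not every correlation of their deviations passed 0.1. In P of MCF10A the correlations ran from −0.1 to 0.635, and 3 of 6 passed. In MDA-MB-231 they ran from −0.187 to 0.282 in T and 0.002 to 0.347 in P, and 4 of 6 passed in each fraction. The T and P libraries of 1 culture, which share more, gave −0.25 to 0.214 in MCF10A and 0.002 to 0.348 in MDA-MB-231, so these correlations alone do not settle pairing. After the data had been seen, the second NPP and HPP libraries of T, or the second H and HPP libraries of P, were left out of MCF10A together, with 0 calls again in each fraction. Between the lines, polysomal libraries in normoxia gave 4 calls too (45.4%). Limiting the ratio test to equal replicate numbers, also chosen after the data had been seen, is given with the ratios. Causes of these shifts were not tested. MT1G and MT1M did not pass the filter and have no test.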
